A study of Bos taurus with 10 samples.

Results

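The genes described here encode the voltage-gated sodium, calcium and potassium channels and the channels named with them. They are the rows of the deposited table whose symbol begins with SCN, a number and A or B, with CACNA, CACNB or CACNG, or with KCN, and whose mean over the 10 embryos is at least 1. The symbols select 112 of the 20112 genes in the table, and all 112 have a mean of at least 1. The set holds 14 sodium channel genes, 22 calcium channel genes and 76 potassium channel genes. Of the 112 genes, 28 have a mean normalized read count of at least 10 and 84 a lower one. *KCNIP2* lies just above this split, with a mean of 10.2, and *KCNH4* just below it, with 9.86. The lowest mean is that of *KCND2*, with 1.22.

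Voltage-gated channels open when the membrane depolarizes. Sodium channels (Nav) carry the rising phase of the action potential, calcium channels (Cav) let calcium enter the cell, and voltage-gated potassium channels (Kv) repolarize the membrane. Each channel consists of a pore subunit, which holds the voltage sensor and the ion pathway, and of auxiliary subunits that steer its trafficking and gating. Not every gene with these symbols encodes a voltage-gated channel. The inward rectifiers (KCNJ) and the tandem pore domain channels (KCNK) lack a voltage sensor and set the resting potential, and several members of the KCNM, KCNN and KCNT groups respond to calcium or sodium. By class, 54 of the 112 genes encode pore subunits of the voltage-gated kind, and 58 belong to the other classes. Ion channels are best known from nerve and muscle, and epithelia also use them, with pumps, to move ions and fluid.

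The samples were single bovine early blastocysts from in vitro fertilization, 5 WT (nc1 to nc5) and 5 *SOX2* KO (ko1 to ko5, as the table numbers them). They were collected on day 7.0 by the sample labels, while the study states a somewhat later time of collection. WT embryos were injected as zygotes with mRNA of BE3, a cytosine base editor, and *SOX2* KO embryos with the same mRNA plus sgRNAs that write premature stop codons into *SOX2*. Both groups thus carried the editor, each embryo was edited on its own, and embryos edited in this way can be mosaic. The study genotyped each sequenced blastocyst on part of its cDNA library. Whole blastocysts were sequenced, so fewer cells of a type and less RNA per cell cannot be told apart.

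Polyadenylated RNA was sequenced by Smart-seq2, and values are normalized read counts, that is, reads per gene divided by the size factor of the embryo. They are not divided by gene length, so levels are compared between embryos and not between genes. Each WT embryo had 2223670 to 5134855 reads on genes, and each *SOX2* KO embryo 2578284 to 4337342. *SOX2* itself had 56.5 to 93.4 in WT against 26.4 to 82.1 in *SOX2* KO embryos, with overlapping groups, and read counts do not show the edited bases. The summed level of 11 trophectoderm markers was 25900 to 48089 per embryo. Most of it came from *KRT8* and *KRT18*, with means of 19966 and 12112 over all embryos. *ELF5* and *IFNT2*, also among the 11, had means of 5.07 and 7.32. The summed level of 7 epiblast genes was 2105 to 2666 in WT against 994 to 1270 in *SOX2* KO embryos. For 5 hypoblast genes it was 1150 to 1516 against 912 to 1060. By the rule given below, 4 of the epiblast and 2 of the hypoblast genes fell in *SOX2* KO, against 1.16% of all tested genes. The number of genes with at least 1 read was 15919 to 18092 in WT against 17987 to 19813 in *SOX2* KO embryos, and the embryos ko1 and ko5 had the most.

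Channel genes were on the whole higher in *SOX2* KO than in WT embryos, and most of them had few reads. A gene was called when its adjusted p by limma was at most 0.05 and its fold change at least 2 or at most 0.5. By this rule 19 of the 112 channel genes rose (17%), against 8.93% of all 20056 genes tested, and 0 fell, against 1.16%. At an unadjusted p of at most 0.05, 57 were higher, 45 of them with a mean under 10, and 2 were lower. The share of all tested genes at this p was not counted, so nothing is read from the 57. DESeq2 and edgeR, run on 9 embryos, also called 0 channel genes lower. The 19 genes are 2 sodium, 5 calcium and 12 potassium channel genes. The log2 fold change was positive for 100 of the 112 genes, against 62.9% of all tested genes, with a median of 1.19 against 0.25. With quantile normalization it was positive for 84 of the 112 (median 0.43 against -0.02).

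The share called has to be read against the level of expression. Of the 84 channel genes with a mean under 10, 13 rose (15.5%), which is close to the 14.1% of all 8722 tested genes in that range, and 0 fell, against 0.195%. Their median log2 fold change was 1.27, against 0.93 for all genes there. The log2 fold change was positive for 77 of the 84, against 83.7% of all genes there. Of the 28 channel genes with a mean of at least 10, 6 rose (21.4%), against 4.97% of the 11334 genes at that level, and 0 fell, against 1.90%. Their median log2 fold change was 0.79, against -0.04. The log2 fold change was positive for 23 of the 28, against 46.9% of all genes there. The mean is taken over both groups, so a gene can pass 10 through its *SOX2* KO values alone. Among the 6 genes that rose, this holds for *CACNA1A*, *CACNA1E*, *CACNA1F* and 1 Kv pore gene that is not reported here. The means of the named genes were 2.27, 2.90 and 2.88 in WT and 18.6, 19.8 and 19.0 in *SOX2* KO embryos. Of these 28 genes, 26 lie between 10 and 40, where 9.31% of 3619 genes rose, 2.49% fell and the median over all genes was 0.16. Values without any overlap between the groups, higher in *SOX2* KO, were found for 13 of the 112 genes (11.6%), against 6.41% of all tested genes. By mean these were 3 of the 28 (10.7%, against 4.54%) and 10 of the 84 (11.9%, against 8.85%). The reverse, every *SOX2* KO embryo below every WT embryo, was found for 0 of the 112, against 2.76%. In the plot of fold change against mean, the channel genes crowd at the left, where the cloud of all genes is shifted upward as well.

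**Figure D1:**
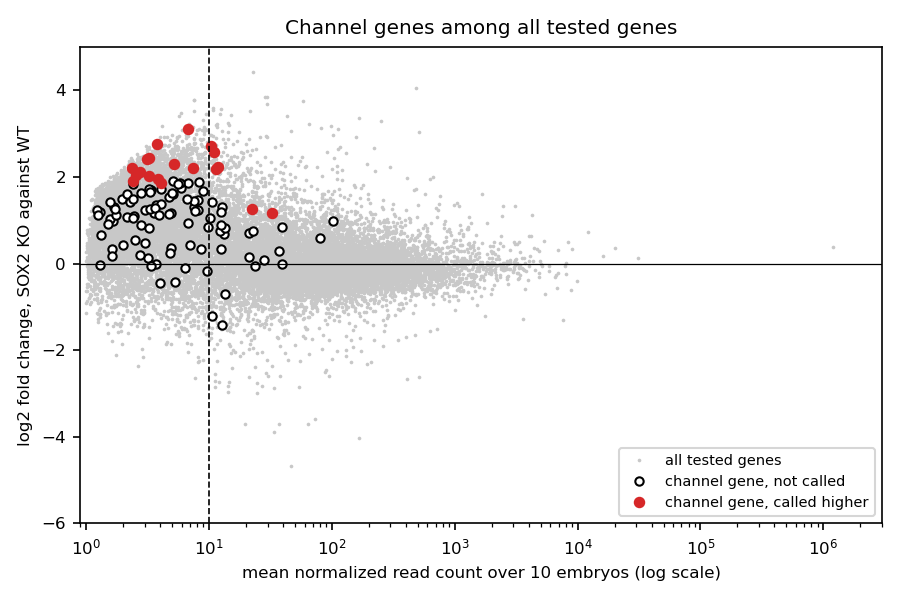
The log2 fold change (*SOX2* KO against WT) of each gene is plotted against its mean normalized read count over the 10 embryos, on a log scale. Grey points are all 20056 tested genes, open circles the channel genes that were not called and red circles the 19 that were called higher. The dashed line marks the mean of 10, over both groups, that separates 28 channel genes from the other 84.

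These counts rest on few embryos. Without ko1 and ko5, 1 of the 112 genes was called higher (0.893%), against 1.10% of all genes. With the share of reads from the 18S ribosomal RNA gene *RN18S1* as a covariate, 1 was called (0.893%), against 0.683% of all genes. Both calls were *KCNJ15*. With quantile normalization 8 of the 112 were called higher (7.14%), against 3.14% of all genes. Leaving out ko1, ko5 or nc4 alone left 11, 10 and 12 calls among the 112, and leaving out ko2 or ko4 gave 33 and 42. For the 28 better expressed genes, there were 3, 3 and 2 calls without ko1, ko3 and ko5, and 9 without nc3. The share of all genes called with 1 embryo left out is not given here. These counts thus show nothing particular to channel genes.

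The pore subunits of calcium channels, called alpha1, leaned toward *SOX2* KO. All 10 had a positive log2 fold change, against 62.9% of all tested genes, and all 10 did so with each other normalization run. In the main test the 10 values ran from 0.58 to 2.71 with a median of 1.64. Of the 10 genes 3 rose, against 8.93% of all tested genes and 9.31% of those with a mean from 10 to under 40. These 3 have means of at least 10 over both groups, as do 8 of the 10, but their WT means run from 2.27 to 2.90. *CACNA1A*, the pore of P/Q-type channels that drive transmitter release at synapses, had 1.53, 1.48, 5.97, 0 and 2.36 normalized reads in WT embryos nc1 to nc5. In ko1 to ko5 it had 32.3, 13.2, 15.1, 8.21 and 24.2, so each of them was above every WT embryo. On the log2 scale it was higher by 2.71 (standard error, SE, of 0.56 and adjusted p = 0.00457 by limma), on 13 reads in WT and 83 in *SOX2* KO embryos. *CACNA1E*, the pore of R-type channels, had 2.29, 2.97, 2.98, 1.55 and 4.72 in WT and 41.2, 13.2, 10.5, 6.57 and 27.7 in *SOX2* KO embryos, again without overlap. This is a log2 difference of 2.19 (SE 0.52, adjusted p = 0.0107 by limma). Both genes kept their calls with any of the 10 embryos left out, with adjusted p up to 0.0207 and 0.0439.

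*CACNA1F*, an L-type pore subunit best known from photoreceptors, had 0, 1.48, 9.94, 0 and 2.95 in WT and 30.1, 10.6, 16.3, 2.46 and 35.7 in *SOX2* KO embryos. The groups overlapped, since the WT embryos nc3 and nc5 were above ko4. The log2 fold change was 2.57 (SE 0.71, adjusted p = 0.0231 by limma), and the adjusted p rose to as much as 0.0799 when 1 embryo was left out, with the call lost without ko1, ko3, ko5, nc1 or nc4. The L-type subunit of skeletal muscle, *CACNA1S*, had a log2 fold change of 1.43 (limma adjusted p = 0.0819). *CACNA1B*, the N-type pore subunit, had 1.30 (limma adjusted p = 0.119). *CACNA1I*, a T-type subunit with a mean under 10, lay nearest to the threshold of the genes that were not called, with 1.92 (limma adjusted p = 0.0538). The T-type subunit *CACNA1H* had the most reads of the class, with 72.5, 40.04, 109, 69.2 and 38.4 in WT and 106, 66.0, 117, 81.3 and 98.0 in *SOX2* KO embryos. The groups overlapped and its log2 fold change was 0.58 (SE 0.26, adjusted p = 0.133 by limma).

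Of the auxiliary calcium channel subunits, 2 of the 4 beta genes rose, and 0 of 4 alpha2delta genes and 0 of 4 gamma genes. At an unadjusted p of at most 0.05, 3 alpha2delta genes and 1 gamma gene were higher, and on 9 embryos DESeq2 and edgeR each called 2 and 0 of them. By limma 8.93% of all tested genes rose. The beta subunits are cytoplasmic and bring the pore subunit to the membrane. *CACNB3* had 8.39, 11.9, 19.9, 13.99 and 8.26 in WT and 32.3, 26.4, 32.6, 15.6 and 55.3 in *SOX2* KO embryos. Only ko4 fell inside the range of the WT group, below nc3. *CACNB3* rose by 1.27 on the log2 scale (SE 0.37, adjusted p = 0.0300 by limma), and the call was lost without ko1, ko3, ko5, nc1, nc2 or nc5 (adjusted p up to 0.108). *CACNB4* was near the limit of detection in WT, with 2 reads over the 5 embryos, and had 22 reads in *SOX2* KO embryos. It had 0 to 0.994 in WT against 2.33 to 8.07 in *SOX2* KO embryos without overlap, and differed by 2.05 on the log2 scale (SE 0.52, adjusted p = 0.0157 by limma).

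*CACNA2D2*, an alpha2delta subunit that sits on the outer face of the membrane, had the most reads of all 112 genes, with a mean of 103. Its values were 90.8, 37.1, 186, 42.7 and 36.6 in WT and 134, 114, 142, 96.9 and 149 in *SOX2* KO embryos. Apart from nc3, which was the highest of all 10, every WT embryo was below every *SOX2* KO embryo. On the log2 scale it was higher by 0.98 (SE 0.34, adjusted p = 0.0551 by limma), and without nc3 or ko4 the gene was called higher, with adjusted p down to 0.00265. *CACNG7*, the gamma gene with the most reads, had 0 to 3.11 in WT against 1.64 to 13.95 in *SOX2* KO embryos (log2 fold change 1.38, limma adjusted p = 0.114), and was called higher without ko4 (adjusted p = 0.0441). Several gamma genes, *CACNG7* among them, are known as partners of glutamate receptors.

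Of the 10 sodium channel pore genes, 2 rose, and of the 4 beta genes 0 did by limma (3 higher at an unadjusted p of at most 0.05, and 1 called by DESeq2 and by edgeR). By limma 8.93% of all tested genes rose, and 14.1% of those with a mean under 10. The median log2 fold change of the pore genes was 1.46, with a range from -0.70 to 2.20. *SCN4A*, the sodium channel of skeletal muscle, had 1.53, 2.97, 1.99, 0 and 1.18 in WT and 27.8, 2.64, 10.5, 4.11 and 20.8 in *SOX2* KO embryos. Here ko2 lay within the WT range and ko1 and ko5 were far above it. This is a log2 difference of 2.20 (SE 0.62, adjusted p = 0.0253 by limma), and the call was lost without ko1, ko3, ko5 or nc4 (adjusted p up to 0.0838). *SCN7A* encodes a relative of these channels that senses sodium rather than voltage. It had 0, 4.45, 0.994, 0.777 and 0 in WT and 7.79, 9.24, 5.81, 7.39 and 2.31 in *SOX2* KO embryos, and is the only one of the 19 called genes in which ko5 was the lowest of its group. Its log2 change in *SOX2* KO was 1.96 (SE 0.58, adjusted p = 0.0312 by limma), a call lost without ko1, ko2, ko3, nc1, nc4 or nc5 (up to 0.0811).

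The sodium channel gene with the most reads, *SCN8A*, whose channel is found at the axon initial segment of neurons, did not differ detectably. It had 9.92, 38.6, 23.9, 19.4 and 42.5 in WT and 43.4, 27.7, 22.1, 9.04 and 41.5 in *SOX2* KO embryos (log2 fold change 0.08, SE 0.43, adjusted p = 0.916 by limma). *SCN1A* had -0.70 (SE 0.47, adjusted p = 0.308 by limma).

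Among the 34 pore subunits of voltage-gated potassium channels, 33 had a positive log2 fold change, with a median of 1.24, and 6 rose. Only 5 of the 34 have a mean of at least 10. Under that mean, 83.7% of all tested genes had a positive log2 fold change, with a median of 0.93, and 14.1% of them rose. Of the 6 that rose, 4 are described here, *KCNV1*, *KCNH3*, *KCNA1* and *KCNC1*, all with a mean under 10. *KCNV1* encodes a silent subunit that forms channels only together with other pore subunits. *KCNV1*, *KCNH3* and *KCNA1* each had 1 read over the 5 WT embryos, and 28, 24 and 20 reads in *SOX2* KO embryos. *KCNC1*, a subunit of fast-firing neurons, had 4 and 26 reads. In this order the differences were 2.45, 2.12, 1.90 and 2.03 on the log2 scale, and the adjusted p by limma was 0.00863, 0.0213, 0.0377 and 0.0248. The call of *KCNV1* held with each embryo left out. The calls of *KCNH3* were lost without ko1 or ko5 (up to 0.0610), those of *KCNA1* without ko3, ko5, nc1, nc2, nc4 or nc5 (up to 0.108) and those of *KCNC1* without ko1, ko5, nc2, nc4 or nc5 (up to 0.0671). *KCNH6*, the Kv pore gene with the most reads, had 59.5, 19.3, 74.6, 13.2 and 12.4 in WT and 35.6, 10.6, 66.3, 50.9 and 31.1 in *SOX2* KO embryos. It varied more within the groups than between their means of 35.8 and 38.9 (log2 fold change 0.29, SE 0.49, adjusted p = 0.719 by limma).

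Of the 9 auxiliary genes of these channels, which bind the pore or shift its gating, 0 were called by limma, DESeq2 or edgeR (2 were higher at an unadjusted p of at most 0.05), and their median log2 fold change was 0.54. With the *RN18S1* share as covariate it was 0.61. By limma 8.93% of all tested genes rose in the main test. *KCNAB1* had the most reads, with 0.777 to 24.9 in WT against 3.96 to 28.9 in *SOX2* KO embryos (log2 fold change 0.74, SE 0.62, adjusted p = 0.415 by limma). The lowest was *KCNE3*, with -0.45. In the plot by class every class median lies to the right of the median of all genes, 0.25, but that median is not matched for level. Over all tested genes with a mean under 10 the median was 0.93. The medians of the auxiliary Kv genes (0.54), the gamma genes (0.88) and the calcium- or sodium-activated class (0.90) were below it. Most genes of these classes have a mean under 10. With quantile normalization the median of the auxiliary Kv genes was -0.31.

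**Figure D2:**
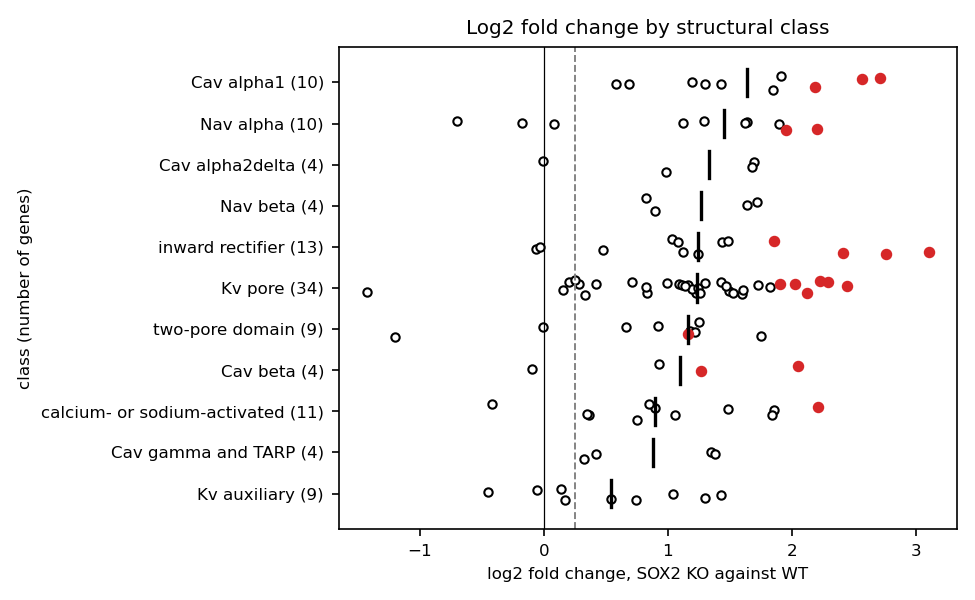
Each circle is the log2 fold change (*SOX2* KO against WT, x axis) of 1 channel gene, in rows by structural class with the number of genes in parentheses. Red circles were called higher. Black bars are class medians, which run from 0.54 for the auxiliary Kv genes to 1.64 for the Cav alpha1 genes. The dashed line is the median of all tested genes, 0.25, and the median of those with a mean under 10, 0.93, is not drawn.

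Of the 13 inward rectifier genes, 4 rose: *KCNJ16*, *KCNJ15*, *KCNJ5* and *KCNJ9*, all with a mean under 10. In that range 14.1% of all tested genes rose. *KCNJ16* and *KCNJ15* are known from kidney epithelium, and *KCNJ5* and *KCNJ9* encode channels opened by G proteins in heart and brain. *KCNJ16* had 2.98 in the WT embryo nc3 and was at 0 in the other 4, while the *SOX2* KO embryos had 26.7, 9.24, 6.98, 3.29 and 18.4. On the log2 scale it was higher by 3.11 (SE 0.61, adjusted p = 0.00352 by limma). *KCNJ15* had 0.590 in nc5, was at 0 in the other 4 WT embryos, and had 15.6, 6.60, 2.33, 4.93 and 8.07 in the *SOX2* KO embryos. This is a log2 difference of 2.76 (SE 0.54, adjusted p = 0.00320 by limma), and it is the channel gene that also passed without ko1 and ko5 (2.28, adjusted p = 0.0317) and with the share of *RN18S1* as covariate (2.87, adjusted p = 0.0424).

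The values of both genes rest on few reads, 3 and 1 in WT and 57 and 34 in *SOX2* KO embryos. *KCNJ5* had 1 read in WT and 27 in *SOX2* KO embryos, without overlap (log2 fold change 2.42, SE 0.55, adjusted p = 0.00892 by limma). *KCNJ9* had 7 and 34 reads with overlap (1.86, SE 0.59, adjusted p = 0.0417 by limma), and kept its call in 3 of 10 fits that left out 1 embryo. It was lost without ko1, ko3, ko5, nc1, nc2, nc3 or nc4, with an adjusted p up to 0.111. *KCNJ13*, an epithelial rectifier and the gene of the class with the most reads, had 11.7 to 36.8 in WT against 19.6 to 26.7 in *SOX2* KO embryos (log2 fold change -0.07, SE 0.33, adjusted p = 0.910 by limma).

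In the RefSeq gene table of the assembly ARS-UCD2.0, in which all 112 symbols were found, each of these 4 genes lies next to another inward rectifier with no coding gene between. The neighbours were not called. *KCNJ2*, beside *KCNJ16*, had a log2 fold change of 1.12 (limma adjusted p = 0.181), and *KCNJ6*, beside *KCNJ15*, had 0.48 (limma adjusted p = 0.672). *KCNJ1*, beside *KCNJ5*, had 1.03 (limma adjusted p = 0.266), and *KCNJ10*, beside *KCNJ9*, had 1.44 (limma adjusted p = 0.0632), the last without overlap between the groups. Over the whole set there are 14 such adjacent pairs, of which 7 held 1 called gene and 0 held a pair of called genes. The difference within a pair was not tested. Neighbouring paralogs can share reads, and the handling of reads that map to several genes is not given in the sources used here.

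Of the 9 tandem pore domain genes, 1 rose, against 8.93% of all tested genes. *KCNK5*, a potassium channel that opens at alkaline pH and is known from epithelia, had 31.3, 7.42, 33.8, 17.1 and 16.5 in WT and 50.1, 37.0, 40.7, 36.1 and 55.3 in *SOX2* KO embryos. Each *SOX2* KO embryo was above each WT embryo, with a narrow gap. The gene rose by 1.16 on the log2 scale (SE 0.35, adjusted p = 0.0332 by limma). *KCNK5* is the called gene with the most reads, 130 in WT and 200 in *SOX2* KO embryos, and its call was lost without ko1, ko3, ko5, nc2, nc4 or nc5 (adjusted p up to 0.0942). Without ko1 and ko5 its log2 fold change was 0.98 (adjusted p = 0.249).

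Of the 11 channel genes activated by calcium or sodium and their subunits, 1 rose, against 8.93% of all tested genes. *KCNMB1*, the beta subunit of the large-conductance calcium-activated channel of smooth muscle, was at 0 in every WT embryo and had 11.1, 2.64, 2.33, 0.821 and 6.92 in the *SOX2* KO embryos. Against 3 reads per WT library as floor, it was at least 1.72-fold higher (limma adjusted p = 0.0147). *KCNT1*, a sodium-activated channel and the gene of this class with the most reads, had 22.1, 25.2, 68.6, 17.9 and 15.3 in WT and 60.1, 23.8, 52.3, 48.5 and 59.96 in *SOX2* KO embryos. As with *CACNA2D2*, the WT embryo nc3 was the highest of all 10. The difference was 0.84 on the log2 scale (SE 0.36, adjusted p = 0.112 by limma), and without nc3 or ko2 the gene was called higher, with adjusted p down to 0.0175.

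Lower values in *SOX2* KO embryos were rare among channel genes. Of the 12 genes with a negative log2 fold change, *KCNG3* and *KCNK1* had the most negative values, and they were chosen after their values were seen. *KCNG3*, a silent Kv subunit, had 20.6, 35.6, 11.9, 10.1 and 9.44 in WT and 16.7, 1.32, 3.49, 1.64 and 16.1 in *SOX2* KO embryos, so that ko1 and ko5 lay within the WT range and the other 3 below it. The log2 fold change was -1.43 (SE 0.60, adjusted p = 0.106 by limma). Without ko1 and ko5 it was called lower, at -2.44 (adjusted p = 0.0407). *KCNK1*, a tandem pore domain channel, had 3.82, 13.3, 14.9, 13.99 and 31.3 in WT and 7.79, 7.92, 8.14, 2.46 and 2.31 in *SOX2* KO embryos, with a log2 fold change of -1.20 (SE 0.53, adjusted p = 0.125 by limma). With quantile normalization, which shifted the median of all genes by -0.27, both were called lower, *KCNK1* at -1.91 (adjusted p = 0.0347) and *KCNG3* at -1.84 (adjusted p = 0.0473).

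The *SOX2* KO embryos differed among themselves in their channel genes. Summed over the 112 genes, the normalized read count came to 703, 610, 1082, 487 and 584 for WT and 1990, 862, 1249, 846 and 1626 in ko1 to ko5. The groups overlapped, since nc3 exceeded ko2 and ko4. Among the *SOX2* KO embryos, ko1 was the highest for 65 of the 112 genes (58.0%) and ko4 for 2 (1.79%), against 29.2% and 19.3% of all tested genes. Among the WT embryos, nc3 was the highest for 48 of the 112 genes (42.9%), against 29.1% of all tested genes. Of the 19 called genes, 18 had their maximum in ko1 or ko5. Over all tested genes, ko5 was the highest of the *SOX2* KO embryos for 21.3%. The share among all called genes was not counted, so nothing particular to channel genes is read from the 18.

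**Figure D3:**
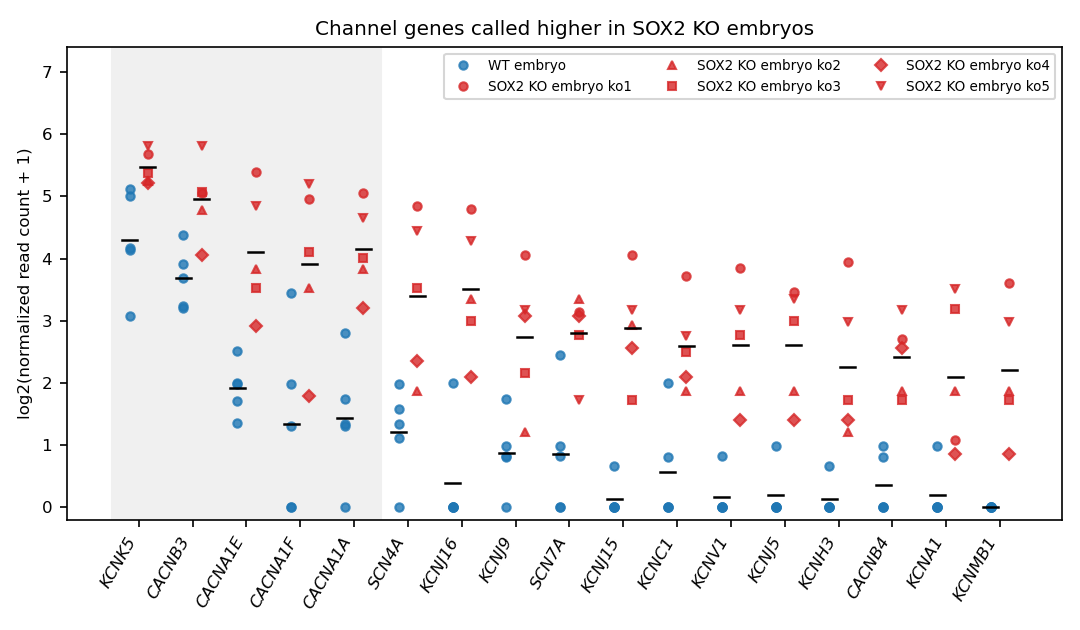
Of the 19 called channel genes, 17 are plotted by embryo on the scale log2(normalized read count + 1), with genes ordered by mean and those with a mean of at least 10 on grey. Blue circles are WT embryos, red symbols the *SOX2* KO embryos ko1 to ko5 and black bars group means, and ko1 or ko5 is the highest symbol for 16 of the 17 genes.

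The same embryos stood out over all genes. At least 1 read was found for 84, 69, 93, 72 and 85 of the 112 channel genes in WT and for 112, 92, 107, 97 and 111 in ko1 to ko5. In percent these are 61.6 to 83.0 in WT against 82.1 to 100 in *SOX2* KO, and for the other tested genes the ranges were 79.5% to 90.1% and 89.7% to 98.6%. After thinning each library to 2223670 reads, WT embryos had 71.6 ± 8.29 (SD, n = 5) and *SOX2* KO embryos 100.2 ± 11.2 (SD, n = 5). Of the 84 genes with a mean under 10, 41 to 65 were found per WT and 64 to 84 per *SOX2* KO embryo, and of the 28 others each embryo had 25 to 28. The share of *RN18S1* among the reads was 26.4% to 37.0% in WT against 32.5% to 45.0% in *SOX2* KO embryos, with its maximum within WT in nc3 and within *SOX2* KO in ko5.

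**Figure D4:**
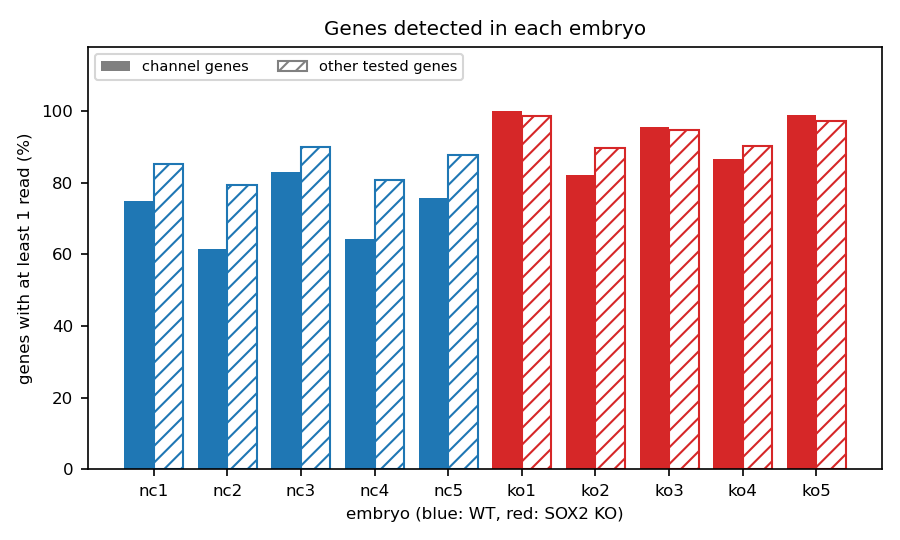
Share of genes with at least 1 read in each embryo, in percent, for the 112 channel genes (filled bars) and all other tested genes (hatched bars), with WT in blue and *SOX2* KO in red. The filled bar is shorter than the hatched one in all 5 WT embryos and also in ko2 and ko4. It is longer in ko1, ko3 and ko5, and reaches 100% in ko1 and 99.1% in ko5. The channel genes and the other genes are not matched for level, so the bars of one embryo do not show a property of channel genes.

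Other channels of the same superfamily and partners of the channels were taken as a separate list of 53 genes, of which 49 were tested. Of these, 11 rose and 1 fell, against 8.93% and 1.16% of all tested genes, and the median log2 fold change was 0.91 against 0.25. These shares are not matched for level. Those that rose all have a mean under 10, apart from *TPCN1*. In that range 14.1% of all tested genes rose, and their median log2 fold change was 0.93. Without ko1 and ko5, 1 of the partners rose and 1 fell, namely *NALCN* and *RRAD*. With the *RN18S1* share as covariate, 0 rose by limma and *RRAD* fell. *TPCN1*, a channel of endosomes and lysosomes, had 22.1, 8.90, 17.9, 15.5 and 21.8 in WT and 62.4, 44.9, 37.2, 30.4 and 63.4 in *SOX2* KO embryos without overlap (log2 fold change 1.42, SE 0.32, adjusted p = 0.00792 by limma). Its adjusted p was 0.135 without ko1 and ko5 and 0.190 with the *RN18S1* share as covariate. *NALCN*, a sodium leak channel, had 2 reads in WT and 28 in *SOX2* KO embryos, with an adjusted p by limma of 0.00337, which was 0.0254 without ko1 and ko5 and 0.0627 with the covariate. *CATSPER1*, *CNGA4*, *CNGB1*, *CLCN1*, *LRRC38*, *LRRC55*, *ABCC8*, *ABCC9* and *STAC2* were the others that rose, with means in *SOX2* KO embryos between 5.0 and 15.2.

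The gene that fell was *RRAD*, a small GTPase of the family that binds calcium channel beta subunits and inhibits calcium currents. It had 131, 209, 179, 169 and 125 in WT and 23.4, 21.1, 31.4, 18.1 and 38.1 in *SOX2* KO embryos. Each of the 5 *SOX2* KO embryos was far below the lowest WT embryo. The log2 fold change was -2.60 (SE 0.24, adjusted p = 1.27e-06 by limma). The call held in each fit that left out 1 embryo, without ko1 and ko5 (adjusted p = 0.000103) and with the share of *RN18S1* as covariate (adjusted p = 2.29e-05).

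Markers of excitable tissues were counted beside the channel genes. Of 11 tested neuron markers, 0 rose by limma (1 higher at an unadjusted p of at most 0.05, and 0 and 1 called by edgeR and DESeq2) and 1, *NEFL*, fell. The call of *NEFL* was lost without ko1, ko4, ko5, nc2, nc4 or nc5 (adjusted p up to 0.118), without ko1 and ko5 together (0.179) and with the *RN18S1* share as covariate (0.362). The summed level of the neuron markers was 221 to 407 in WT against 186 to 390 in *SOX2* KO embryos. Of 11 tested markers of striated muscle, 6 rose (*MYH6*, *MYH7*, *TNNT2*, *TNNI3*, *MYL7* and *RYR1*), against 8.93% of all tested genes, with a summed level of 91.9 to 228 in WT against 292 to 702 in *SOX2* KO embryos. Apart from *MYH6*, each of the 6 lost its call in some fits that left out 1 embryo: *MYH7* without ko1, ko2 or ko3, *TNNI3* without ko3, nc2 or nc5, *MYL7* without ko1, ko3, nc1 or nc2, *RYR1* without ko1, ko3, ko5 or nc2, and *TNNT2* without ko1, ko5, nc1, nc2, nc4 or nc5 (adjusted p up to 0.120). No marker of either list was at 0 in all WT embryos. *MYH6*, a cardiac myosin heavy chain, had 9.44 to 16.9 in WT against 35.7 to 76.8 in *SOX2* KO embryos (log2 fold change 2.11, SE 0.29, adjusted p = 0.000190 by limma), and is the only 1 of the 11 that was called without ko1 and ko5 (adjusted p = 0.0169) or with the *RN18S1* share as covariate (adjusted p = 0.0140). The part of muscle genes in the result for *SCN4A* and *CACNA1S* was not tested. Of 5 tested genes of cumulus and granulosa cells, which surround the oocyte, 0 were called by limma, DESeq2 or edgeR (1 was higher at an unadjusted p of at most 0.05), with a summed level of 8.90 to 59.8 in WT against 26.3 to 70.0 in *SOX2* KO embryos.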

How the data were processed

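The deposited values are a normalized signal, made by the authors from read counts per gene with size factors of DESeq2, after Trimmomatic, Hisat2 (ARS-UCD1.2) and featureCounts. Dividing each column by its smallest step turned 100% of 201120 values into whole numbers (relative tolerance 1e-06), taken as reads per gene. The KO columns do not carry the replicate numbers of their labels and were assigned by group. limma (version 3.58.1, trend) was fitted to log2(normalized read count + 1) for 20056 genes (mean of 1 or more), without covariates, with Benjamini-Hochberg adjustment over all of them. A fold change on this scale understates that of low genes. DESeq2 (1.42.0) and edgeR (4.0.16) were run on reads of 9 embryos, without nc3, whose step near 1 the unit check did not accept. Tests were tried on simulated counts. Members and lists were chosen with earlier results of these data known. Genes named are *SOX2*, called channel genes, those with a mean of at least 10 without overlap, those with a mean of at least 100, the top gene by mean of each class and called partners, of which a few are not reported here. *CACNA1B*, *CACNA1I*, *CACNA1S*, *SCN1A*, *KCNE3*, *KCNG3*, *KCNK1*, the neighbours of inward rectifiers and *MYH6* were chosen after their values were seen. Of the lists, *LRRC52*, *FGF13*, *GEM*, *NPPA* and *GAP43* were not analysed here. Strand setting is not given in the sources used here, so reads of overlapping or antisense genes may be shared. Reads carry no molecular identifiers, so floors cover counting error only, and p-values measure the spread between single embryos. Gene length, promoter, protein sequence and genome coordinates were not analysed here.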

Additional observations from a re-analysis of the deposited data

Results flagged for a closer look

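Within 52 groups of 5 embryos, taken from 25 named channel genes and *SOX2*, 7 had 1 embryo far from the other 4 by Dixon's test. For values without ties chance gives about 1 in 20 groups, but that share does not apply to 6 of the 7, where 1 to 3 reads stood beside 4 WT embryos at 0, and nothing is read from their number: *KCNA1* (0.994), *KCNJ5* (0.994) and *KCNJ16* (2.98) in nc3, *KCNH3* (0.590) and *KCNJ15* (0.590) in nc5, and *KCNV1* (0.777) in nc4. In the remaining one, *KCNT1* had 23.8 in ko2 against 48.5 to 60.1 in the other *SOX2* KO embryos.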

How the results depend on the processing

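The number of channel genes called higher, 19, was 8 with quantile normalization, 11 with a pseudocount of 5, 5 with only genes of a mean of at least 10 tested, 43 with sample quality weights, 30 with edgeR and 34 with DESeq2 on 9 embryos. It was 1 with the *RN18S1* share as covariate and 1 without ko1 and ko5 (added after seeing the data), which leaves fewer embryos. With 1 embryo left out it was 10 to 42. The share of all genes called is given above for quantile normalization, the covariate and the fit without ko1 and ko5. For the other settings it is not given, so nothing particular to channel genes is read from these counts. At a mean of 10 or more, the 6 calls became 10 with DESeq2 on 9 embryos, 0 with the *RN18S1* covariate and 0 without ko1 and ko5. With 1 embryo left out limma gave 2 to 9, and 9 without nc3. DESeq2 and edgeR were run without nc3, so the tool and the missing embryo cannot be told apart in their counts. The number called lower, 0, became 2 with quantile normalization and 1 without ko1 and ko5, in both cases genes of mean 10 or more, and stayed 0 with each embryo left out. The other causes were not tested. Quantile normalization also moved the share of higher calls over all genes from 88.5% to 58.5%, the *RN18S1* covariate to 62.3% and leaving out ko1 and ko5 to 63.0%.

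Among 25 named channel genes, 430 of the values under other settings kept their direction and side of the threshold, 106 lost the call, 12 gained it and 14 changed sign, each for a gene that was not called. *KCNJ13* (-0.07) had 0.034 with DESeq2, 0.0305 with the median log ratio and 0.037 with quality weights, and -0.30 to 0.10 with 1 embryo left out (positive without nc2 or nc3). *SCN8A* (0.08) had -0.0203 with the *RN18S1* covariate, -0.041 with edgeR, -0.0389 with equal totals, -0.0352 with quantile normalization, -0.40 without ko1 and ko5, and -0.22 to 0.43 with 1 embryo left out (negative without ko1, ko5 or nc1). *KCNH6* had -0.45 with the *RN18S1* covariate. The number of channel genes detected differed by 23.2 between the group means, by 28.6 after thinning and by 29.8 with more than 3 reads required. Of the 112 genes, 41 had at most 3 reads in every WT embryo, among them 12 of the 19 called, and at this depth their levels in WT are not resolved. No paired analysis was possible because the KO columns are numbered apart from the labels, so that no number links a KO embryo to a WT one.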
